A study of Mus musculus with 12 samples.

Results

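The genes described here code for the proteasome and the proteins that assemble or regulate it. They were chosen by name alone, as the protein-coding genes of the GENCODE M21 annotation (mouse genome build mm10, GRCm38) whose symbols start with Psma, Psmb, Psmc, Psmd, Psme or Psmg. The rule gave 48 genes of 21910 protein-coding symbols. The proteasome is the large protease that degrades ubiquitin-tagged proteins in the cytosol and nucleus. Its core particle, the 20S proteasome, is a barrel of outer alpha rings and inner beta rings, and the cutting sites lie on the beta rings. A regulatory particle, the 19S cap, binds ubiquitin chains, removes them and feeds the unfolded substrate into the barrel through a ring of ATPases. Because every cell needs the complex, most of its genes have active promoters in most tissues, including the liver.

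Acetylation of lysine 9 on histone H3 (H3K9ac) is found at the promoters of transcribed genes, and it had been mapped in livers of adult mice by ChIP-seq, the sequencing of DNA recovered from chromatin with an antibody. Of the 12 samples, 6 were H3K9ac libraries, each with its own peak list, and 6 were inputs, which were not analysed here. The H3K9ac libraries came from 2 mice of C57BL/6J (B6, the strain of the reference genome), 2 mice of MSM/Ms (MSM, inbred from wild mice of Japan), and 1 F1 hybrid from each reciprocal cross: F1 BM, whose dam was B6 and sire MSM, and F1 MB, whose dam was MSM and sire B6. All mice were labelled as adult, the labels name no treatment beyond fixation, and liver tissue was used, so that a difference in cell composition and a difference in acetylation per cell cannot be told apart. The comparison behind the design is that of the strains, with the reciprocal hybrids set beside them.

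The lists held between 11619 peaks (B6 replicate 2) and 22968 peaks (B6 replicate 1), covering 6.28 and 16.0 Mb, and the other 4 lists lay between these values. The B6 libraries were thus the extremes on either side of both MSM libraries, which held 17310 and 17584 peaks. No read counts were used. The study reports the read pairs obtained for its ChIP samples, but the lists were not set against them here. A missing peak thus cannot be told from one too weak to be called. Peaks within 2 kb of a transcription start site (TSS), on either side, were assigned to the gene, and the number of bp of this 4 kb window under peaks is called the acetylated length. The tissue label was checked against marker genes. Of 8 hepatocyte genes, the same number, 7, had a peak in each of the 6 lists, whereas of 8 immune and Kupffer cell genes 1 had a peak in B6 replicate 1, of 313 bp, and 0 in the other 5 lists. Of 4 endothelial genes, 3 and 0 had a peak in B6, 2 and 3 in MSM, 3 in F1 BM and 2 in F1 MB, with a summed length of 4470 and 0 bp in B6, 544 and 1581 bp in MSM, 2725 bp in F1 BM and 822 bp in F1 MB. Of 4 stellate cell and cholangiocyte genes, 1 had a peak, of 798 bp in F1 BM. These marks of other cells thus differed between libraries of the same strain, and their part in the results below was not tested.

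Most proteasome genes carried H3K9ac within 2 kb of their start in every list. Of the 48 genes, 33 (68.8%) had a peak in all 6 lists, beside 24.4% of all protein-coding genes, and 4 had a peak in none, beside 53.2% of all genes. The number of proteasome genes with a peak was 41 and 35 in B6, 42 and 43 in MSM, and 39 in each F1 list. The share of all genes with a peak was 45.2% and 28.8% in B6, 36.5% and 37.2% in MSM, and 36.4% (F1 BM) and 32.6% (F1 MB) in the hybrids. The shortest list, B6 replicate 2, was the one most often missing. Without it 37 genes (77.1%) had a peak in all of the other 5 lists, beside 28.0% of all genes. With a window of 1 kb, 31 genes (64.6%) had a peak in all 6 lists, beside 23.6% of all genes. When each list was cut to the same covered length of 6.28 Mb, keeping its best peaks by deposited p-value, 9 genes (18.8%) had a peak in all 6 lists, beside 11.9% of all genes.

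The core particle was marked almost throughout. Of the 7 alpha ring genes (Psma1 to Psma7), which form the gate of the barrel, 6 had a peak in all 6 lists, and Psma6 had none at its annotated gene start. Of the 7 beta ring genes (Psmb1 to Psmb7), 6 had a peak in all 6 lists. At Psmb1 the peak of B6 replicate 2 began 1465 bp downstream of the TSS, and that of MSM replicate 1 began 1481 bp downstream. The mean acetylated length over the 4 parental libraries ran from 815 bp (Psma2) to 1033 bp (Psma3) over the alpha ring genes in all 6 lists, and from 544.5 bp (Psmb4) to 776 bp (Psmb7) over the beta ring genes in all 6 lists. Psmb5, Psmb6 and Psmb7 code for the catalytic beta subunits with chymotrypsin-like, caspase-like and trypsin-like activity.

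Psmb5 was covered for 915 bp in B6 replicate 1, 802 and 378 bp in MSM, 507 bp in F1 BM and 314 bp in F1 MB, and had no peak in B6 replicate 2. Psmb6 was covered for 1096 and 832 bp in B6, 465 and 513 bp in MSM, 680 bp in F1 BM and 552 bp in F1 MB. Psmb7 was covered for 697 and 648 bp in B6, 695 and 1064 bp in MSM, 1035 bp in F1 BM and 612 bp in F1 MB. Among these catalytic genes the lengths of the strains did not overlap at Psmb6, where both B6 libraries were longer, and overlapped at Psmb7.

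The inducible and tissue-specific core subunits were marked unevenly. Psmb10, an interferon-inducible subunit that takes the place of Psmb7 in the immunoproteasome, was covered for 1212 and 864 bp in B6, 1149 and 1135 bp in MSM, 1115 bp in F1 BM and 1150 bp in F1 MB. Psmb9, the inducible subunit that replaces Psmb6, was covered for 1776 and 498 bp in B6 and 899 and 551 bp in MSM, and had no peak within 2 kb in either F1 list, where the nearest peak was 10642 bp away in F1 BM and 16751 bp away in F1 MB. A peak in all 4 parental lists and in neither F1 list was seen at 1 proteasome gene, and at 0.228% of all genes. The start of Psmb9 lies 211 bp from that of Tap1, a peptide transporter gene on the opposite strand, so a peak there cannot be assigned to Psmb9 alone. Psma8, an alpha subunit of the testis, had 427 bp in MSM replicate 2 and no peak in the other 5 lists. Psmb11, the beta subunit of the thymus, had no peak in any list, and in 5 of the 6 lists its nearest peak, 3188 to 3530 bp away, was that of the neighbouring Psmb5.

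**Figure D1:**
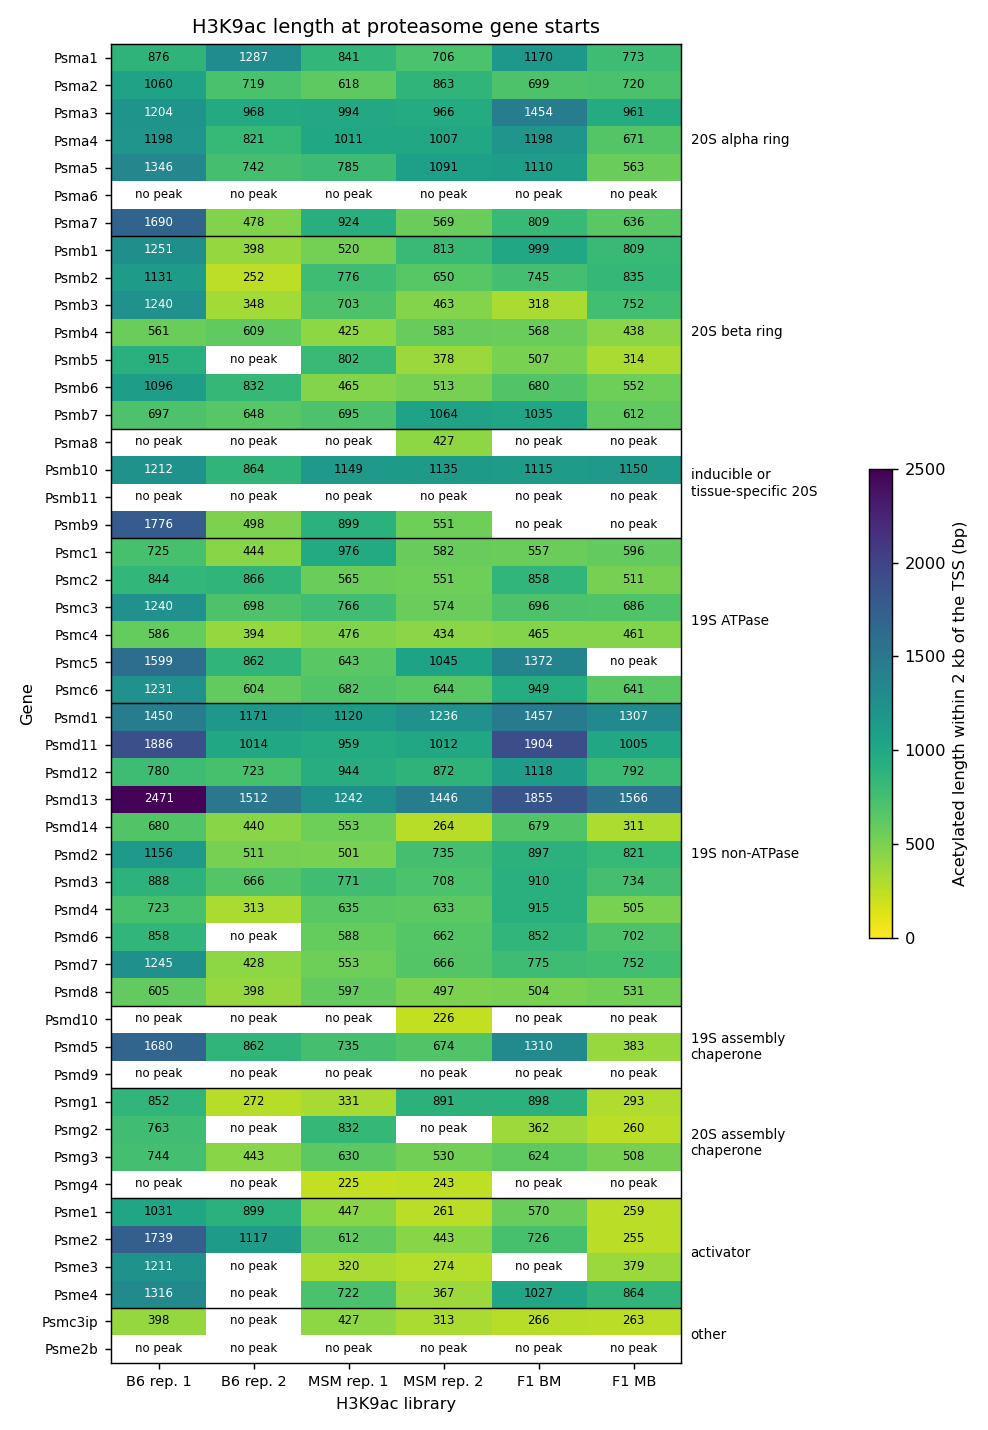
Acetylated length within 2 kb of the TSS, in bp (colour and printed value), for the 48 proteasome genes (rows, by role) in the 6 H3K9ac libraries (columns); white cells had no peak. The 33 genes in all 6 lists fill most rows, B6 replicate 2 has the most white cells among genes that are otherwise marked, and Psmd13 has the longest mean over the parental libraries.

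The 19S cap was also marked in nearly all of its genes. The 6 ATPase genes (Psmc1 to Psmc6), which unfold the substrate, had a peak within 2 kb in all 6 lists except Psmc5. At Psmc2 a peak began 1135 bp (B6 replicate 2) to 1490 bp (F1 MB) downstream of the TSS in all 6 lists. Only B6 replicate 1 had a further peak at Psmc2, 154 to 450 bp upstream. Psmc5 was covered for 1599 and 862 bp in B6, 643 and 1045 bp in MSM and 1372 bp in F1 BM, and had no peak in F1 MB. Of the 11 non-ATPase subunit genes, 10 had a peak in all 6 lists, among them Psmd4, a ubiquitin receptor, and Psmd14, the subunit that removes ubiquitin. The exception was the lid gene Psmd6, with 858 bp in B6 replicate 1, 588 and 662 bp in MSM, 852 bp in F1 BM and 702 bp in F1 MB, and no peak in B6 replicate 2.

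Among the 33 genes in all 6 lists, the 3 longest and the 3 shortest marks belonged to the 19S cap. The mean parental length was 1668 bp at Psmd13, 1244 bp at Psmd1 and 1218 bp at Psmd11, against 472.5 bp at Psmc4, 484.25 bp at Psmd14 and 524.25 bp at Psmd8. Psmd1 is a scaffold of the cap, and Psmd11 and Psmd13 are lid subunits. Over the 33 genes in all 6 lists the median was 758.25 bp. Psmd11 ranged from 959 bp (MSM replicate 1) to 1904 bp (F1 BM), Psmd1 from 1120 bp (MSM replicate 1) to 1457 bp (F1 BM), Psmd14 from 264 bp (MSM replicate 2) to 680 bp (B6 replicate 1), and Psmc4 from 394 bp (B6 replicate 2) to 586 bp (B6 replicate 1). In each library the proteasome genes were close to the middle of all marked genes: their median length stood between percentile 43.9 (MSM replicate 2) and 57.0 (B6 replicate 1) of the genes with a peak in that list, and their median highest fold enrichment between percentile 37.8 (F1 MB) and 63.6 (B6 replicate 1).

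Assembly factors were marked in part. Of the 19S chaperone genes, Psmd5 had a peak in all 6 lists, Psmd10 (gankyrin) had 226 bp in MSM replicate 2 and no peak in the other 5 lists, and Psmd9 had none at its gene start. Of the 20S chaperone genes, which pair up to guide the alpha ring, Psmg1 and Psmg3 had a peak in all 6 lists. Psmg2 was covered for 763 bp in the B6 list and 832 bp in the MSM list of replicate number 1, 362 bp in F1 BM and 260 bp in F1 MB, and had no peak in B6 replicate 2 and MSM replicate 2. Psmg4 was covered for 225 and 243 bp in MSM and had no peak in either B6 list or in either F1 list. It was the 1 proteasome gene with a peak in both MSM and neither B6 library, a pattern seen at 0.333% of all genes. The opposite pattern was seen at 0 proteasome genes and at 0.849% of all genes. The count for MSM rests on the libraries used, as it was 6 without B6 replicate 1 and 3 without MSM replicate 1, beside 7.30% and 0.799% of all genes.

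The activators are alternative caps of the barrel. Psme1 and Psme2 code for the PA28 alpha and beta subunits, which interferon gamma induces, Psme3 for the nuclear PA28 gamma, and Psme4 for PA200. Psme1 and Psme2 had a peak in all 6 lists. Psme3 was covered for 1211 bp in B6 replicate 1, 320 and 274 bp in MSM and 379 bp in F1 MB, and had no peak in B6 replicate 2 and F1 BM. Psme4 was covered for 1316 bp in B6 replicate 1, 722 and 367 bp in MSM, 1027 bp in F1 BM and 864 bp in F1 MB, and had no peak in B6 replicate 2. The name rule also took in Psmc3ip, a meiotic recombination factor that is not a proteasome subunit, and Psme2b, a gene named for its likeness to Psme2. Psmc3ip had 398 bp in B6 replicate 1, 427 and 313 bp in MSM, 266 bp in F1 BM and 263 bp in F1 MB, and no peak in B6 replicate 2. Psme2b had no peak in any list.

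Psma6 and Psmd9, which lacked a peak at the gene start, carried one at another annotated start. For Psma6 the annotation lists a further transcript start 14553 bp downstream, and around it the acetylated length was 1508 and 1500 bp in B6, 1528 and 1381 bp in MSM, 1725 bp in F1 BM and 1351 bp in F1 MB. For Psmd9 the first marked start lay 58777 bp downstream. Over all annotated Psmd9 starts together the acetylated length was 1092 and 635 bp in B6, 258 and 261 bp in MSM, 1008 bp in F1 BM and 880 bp in F1 MB. Psma6 was thus marked to a similar length in every list, whereas both B6 libraries were above both MSM libraries at Psmd9. With all transcript starts used, 35 of the 48 genes (72.9%) had a peak in all 6 lists, beside 26.3% of all genes.

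H3K9ac lay mainly inside the transcribed side of these genes. Summits were placed for the proteasome genes only. The highest peak of each gene had its summit downstream of the TSS in 33 of 41 and 32 of 35 genes in B6, 35 of 42 and 36 of 43 genes in MSM, 33 of 39 genes in F1 BM and 32 of 39 genes in F1 MB, at a median distance of 207 bp (MSM replicate 2) to 405 bp (B6 replicate 2). Of the proteasome genes in all 6 lists, the share under a peak was highest between 300 bp (B6 replicate 1, 93.9%) and 450 bp (F1 MB, 81.8%) downstream. Of all genes in all 6 lists it was highest between 250 bp (B6 replicate 1, 88.9%) and 350 bp (F1 BM, 72.5%) downstream, and lowest at its maximum in B6 replicate 2 (64.9%). At 500 bp upstream the share of the proteasome genes was 27.3% and 6.06% in B6, 9.09% and 9.09% in MSM, 18.2% in F1 BM and 12.1% in F1 MB. Of all genes in all 6 lists, 49.2% and 25.1% in B6, 31.5% and 31.5% in MSM, 38.1% in F1 BM and 26.2% in F1 MB were under a peak at this distance. The share of proteasome genes was lower in all 6 libraries, a difference for which no test was made.

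**Figure D2:**
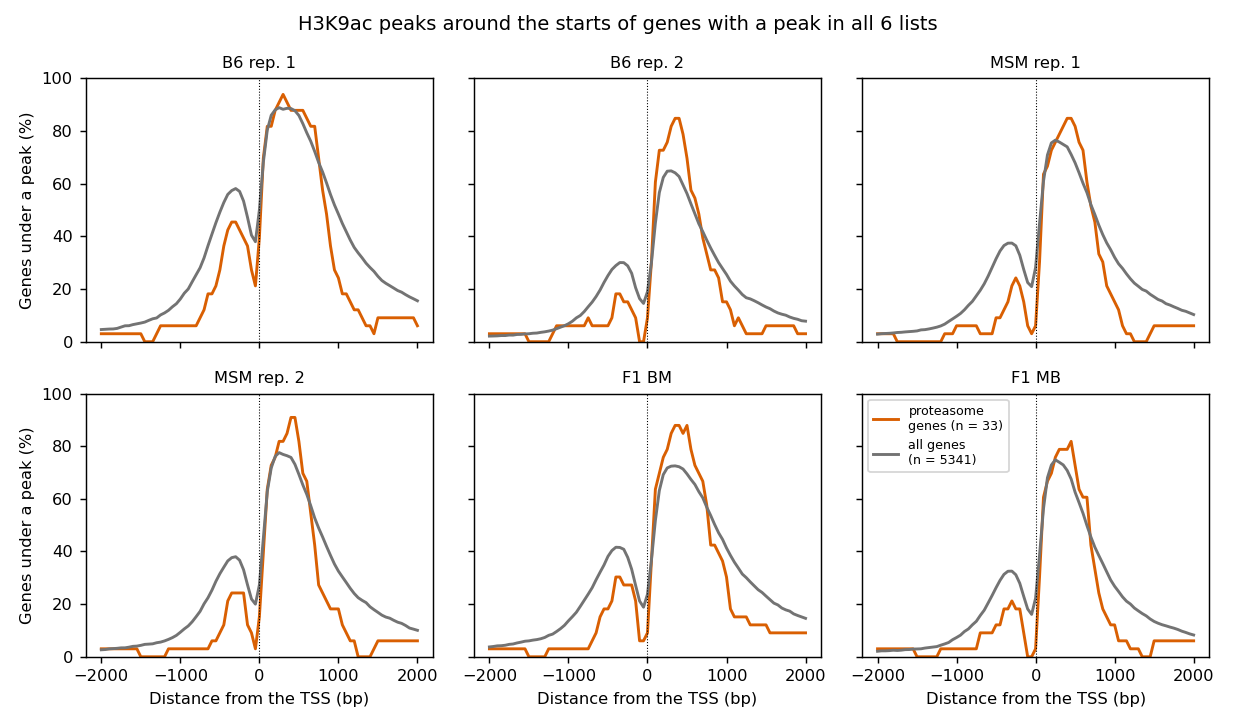
Percentage of genes under an H3K9ac peak (y axis) by distance from the TSS in bp (x axis, negative values upstream) in each library, for the 33 proteasome genes and the 5341 genes with a peak in all 6 lists. In all 6 panels the proteasome genes stay below all genes on the upstream side near 500 bp and reach 81.8% to 93.9% downstream.

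To measure this asymmetry, peaks at most 500 bp apart were joined into domains, and the reach of the domain nearest the TSS was taken on either side, with negative values where the domain stops short of the TSS. The median upstream reach over the 31 proteasome genes with such a domain in all 6 lists was 46 and -66 bp in B6, -26 and -30 bp in MSM, -27 bp in F1 BM and -47 bp in F1 MB. Over the 4748 genes with such a domain it was 535 and 0 bp in B6, 188.5 and 157.5 bp in MSM, 332 bp in F1 BM and 15.5 bp in F1 MB. The median downstream reach lay between 650 and 873 bp for the proteasome genes and between 634 and 987 bp for all genes. Reach was longer downstream than upstream at 27 to 29 of the 31 proteasome genes, by library, beside 75.1% to 78.3% of all genes. The domain spanned the TSS in 19 and 6 of the 31 proteasome genes in B6, in 6 and 9 in MSM, in 11 in F1 BM and in 5 in F1 MB. These are 61.3%, 19.4%, 19.4%, 29.0%, 35.5% and 16.1% of the 31, beside 79.8%, 37.2%, 54.1%, 54.2%, 51.9% and 44.1% of all genes in the same order.

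The reach of the strains overlapped in the deposited lists. Over the 33 genes with a domain in all 4 parental lists, the median upstream reach was 183 and -56 bp in B6 and -26 and -27 bp in MSM. The difference, MSM minus B6, was -90 bp and the pooled SD within strains was 120 bp. The downstream reach was 873 and 650 bp in B6 and 707 and 661 bp in MSM, a difference of -77.5 bp with a pooled SD of 114 bp. Both differences turned positive without B6 replicate 1, at 29.5 and 34 bp, and were -209.5 and -189 bp without B6 replicate 2. With the same covered length in each list, an alternative chosen after seeing the data, 9 genes remained. Their downstream reach did not overlap between the strains, at 974 and 900 bp in B6 and 866 and 862 bp in MSM, a difference of -73 bp with a pooled SD of 37.1 bp. Their upstream reach overlapped. Reach under this cut was not computed over all genes, so the downstream non-overlap cannot be read as particular to these genes. No exact permutation test was reported, because 2 libraries against 2 cannot give a two-sided p below 0.333.

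A neighbouring start lay close at some genes, and the share over all genes was not computed. Of the 48 genes, 13 had another protein-coding start within 1 kb, and in 12 of these it was on the opposite strand, so that the peaks may belong to either gene. The nearest were Dnajc2 at 32 bp from Psmc2, Mrpl32 at 75 bp from Psma2, Ftsj3 at 75 bp from Psmc5 and Ss18l1 at 76 bp from Psma7. The others were Tbp at 137 bp from Psmb1, Atg4a at 179 bp from Psmd10, AY074887 at 208 bp from Psma4, Tap1 at 211 bp from Psmb9, Cep76 at 263 bp from Psmg2, Sirt3 at 341 bp from Psmd13, Gm26938 at 478 bp from Psmg3, Cutal at 572 bp from Psmd5 and Rnf31 at 595 bp from Psme2. Among the genes in all 6 lists, the median of the mean parental length was 915 bp for the 9 with such a neighbour and 726 bp for the 24 without. The longest mark, that of Psmd13, cannot be assigned to it alone. Its highest peak had the summit 404 and 360 bp upstream of the TSS in B6, 318 bp upstream in MSM replicate 1, 381 bp upstream in F1 BM and 389 bp upstream in F1 MB, within the annotated Sirt3 gene, a mitochondrial deacetylase gene that is read the other way. In MSM replicate 2 the highest peak of the window lay further upstream, at 1702 bp.

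The strains were compared in a fit across all 5759 genes with a peak in all 4 parental lists, 35 of them proteasome genes. Acetylated length and log2 of the highest fold enrichment in the window were centred on each library's median over these genes, since the libraries differed in overall peak length, with medians of 1365 and 650 bp in B6 and 890 and 898 bp in MSM. Differences are given as MSM minus B6 with their standard error (SE), so that a negative value is higher in B6. The SE is that of limma, which draws the spread of each gene toward a value shared by all genes fitted. With 2 libraries per strain this SE is not the spread of the gene alone.

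For acetylated length, limma called 0 of the 35 proteasome genes at an adjusted p of 0.05, beside 19 of all 5759 genes (0.33%), 13 of them longer in B6 (0.226%) and 6 longer in MSM (0.104%). At an unadjusted p of 0.05, 3 proteasome genes were longer in B6 and 0 in MSM, beside 10% of all genes in either direction. The median difference was -38 bp over the proteasome genes and 21 bp over all genes. Its direction was not stable. With lists cut to equal numbers of peaks it came to 55.25 bp (45 bp over all genes), and with equal covered length to 21.5 bp (46 bp). Leaving out B6 replicate 2 gave 121.25 bp (75.5 bp) and leaving out MSM replicate 1 gave 12 bp (19.25 bp). It was more negative at -170.5 bp (-55.5 bp) without B6 replicate 1, -80.5 bp (16.5 bp) without MSM replicate 2 and -151.5 bp (-92.5 bp) without centring. Centred lengths of both B6 libraries were above those of both MSM libraries at 9 proteasome genes of 35 (25.7%), a pattern seen at 19% of all genes. The opposite was seen at 2 (5.71%), beside 19.3% of all genes. These counts depended on single libraries. Without B6 replicate 2 the fit held 40 proteasome genes, and in the other cases 35. B6-longer genes were 24 without B6 replicate 1 and 16 without B6 replicate 2, beside 44.6% and 31.3% of all genes. MSM-longer genes were 19 without B6 replicate 2, 6 without MSM replicate 1 and 4 without MSM replicate 2, beside 48.3%, 31.0% and 30.6% of all genes. The 19 are 47.5% of the 40. With the same covered length the order turned, with 1 of 10 genes longer in B6 and 2 longer in MSM, beside 18.6% and 23.8% of all genes.

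Among the proteasome genes the largest difference in length was at Psme2, the PA28 beta gene. It was covered for 1739 and 1117 bp in B6, 612 and 443 bp in MSM, 726 bp in F1 BM and 255 bp in F1 MB. Both B6 libraries were longer than both MSM libraries, and both F1 libraries were shorter than both B6 libraries. The centred difference was -787 ± 203 bp (SE, n = 2 per strain), with a limma adjusted p of 0.162, and over the 10 alternatives in which it was fitted the adjusted p was between 0.0607 and 1. The mark at Psme2 consists of up to 3 peaks, 1 inside Psme2 and 2 on the side of Rnf31, a ubiquitin ligase subunit gene on the opposite strand. The outermost of these, with its summit 869 and 910 bp upstream in B6 and 852 bp upstream in MSM replicate 1, lay in a coding exon of Rnf31 and was missing from MSM replicate 2 and both F1 lists.

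Psmd13 was covered for 2471 and 1512 bp in B6, 1242 and 1446 bp in MSM, 1855 bp in F1 BM and 1566 bp in F1 MB. The centred difference was -534 ± 210 bp, with a limma adjusted p of 0.415. With the same covered length in each list the difference was -10.5 bp, and under the other alternatives it was between -683.5 and -360 bp. The F1 values lay between the B6 values, above both MSM values. On the MSM side the 2 separated genes were Psmb10 and Psmd4. Psmb10 differed by 217.5 ± 214 bp and Psmd4, the ubiquitin receptor, by 229.5 ± 209 bp, with adjusted p-values of 0.859 and 0.845. Psmd4 was covered for 723 and 313 bp in B6, 635 and 633 bp in MSM, 915 bp in F1 BM and 505 bp in F1 MB. The uncentred lengths of the strains thus overlapped at Psmb10 and Psmd4, and the order appeared on the centred scale only. Larger centred differences, of 320.5 bp at Psmb7, 308 bp at Psmc1 and 270 bp at Psmd12, came with strains that overlapped. Without centring, Psmd12 was the 1 gene longer in MSM, with 780 and 723 bp in B6 and 944 and 872 bp in MSM.

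**Figure D3:**
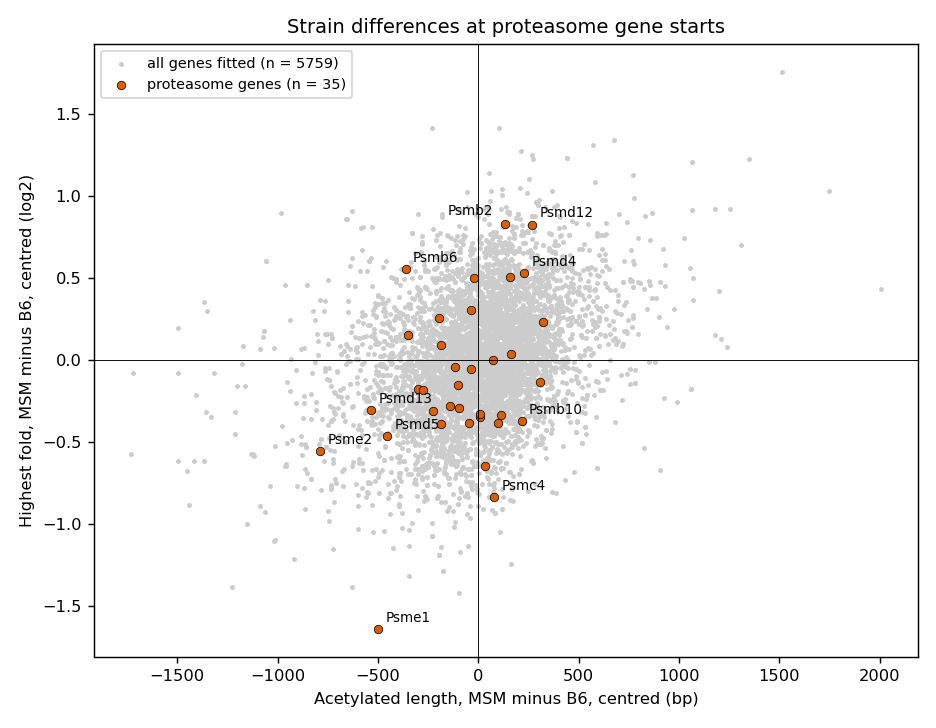
Difference between the strains, MSM minus B6, in centred acetylated length (x axis, bp) and in centred log2 highest fold enrichment (y axis), for all 5759 genes fitted (grey) and the 35 proteasome genes among them (orange). Psme1 is the lowest of all points on the y axis, at -1.64, and Psme2 has the most negative length difference of the proteasome genes, at -787 bp.

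For fold enrichment, limma called 0 of the 35 proteasome genes and 0 of all 5759 genes (0%), while at an unadjusted p of 0.05 there were 4 proteasome genes, 2 in each direction, and 449 of all genes (7.8%). The median log2 difference was -0.18 over the proteasome genes and 0.01 over all genes. Over the proteasome genes it was -0.02 without MSM replicate 1 and -0.24 without B6 replicate 1, beside 0.01 and -0.01 over all genes. With equal numbers of peaks it was -0.06, beside 0.02 over all genes. Centred folds of both B6 libraries were above those of both MSM libraries at 10 proteasome genes (28.6%), beside 18.7% of all genes, and the opposite was seen at 6 (17.1%), beside 19.4%. Single libraries moved these counts too, again with 40 genes without B6 replicate 2. B6-higher genes were 20 without B6 replicate 1, 17 without B6 replicate 2 and 18 without MSM replicate 2, beside 33.8%, 33.2% and 34.0% of all genes. MSM-higher genes were 13 without B6 replicate 2 and 10 without MSM replicate 1, beside 36.7% and 35.5%.

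Psme1, the PA28 alpha gene, had the most negative fold difference of all 5759 genes. Its highest fold enrichment was 17.3 and 10.3 in B6, 4.42 and 3.90 in MSM, and 5.45 (F1 BM) and 4.56 (F1 MB) in the hybrids. Both B6 values were above the other 4, including that of B6 replicate 2, which is the shortest list. The mean was 13.8 in B6 and 4.16 in MSM, 3.31-fold higher in B6. On the centred log2 scale the difference was -1.64 ± 0.31 (SE, n = 2 per strain), with a limma adjusted p of 0.169. With the same number of peaks or the same covered length Psme1 lacked a peak in at least 1 parental list and was not fitted. Under the other 10 alternatives of the same measure the difference was between -1.74 and -1.53, while the adjusted p ranged from 0.00385 to 1.00, and it was 0.0426 when every annotated transcript start was used and 0.0138 when the −log10 p of the peak was used in place of the fold.

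The mark at Psme1 was also longer in B6. It covered 1031 and 899 bp in B6, 447 and 261 bp in MSM, 570 bp in F1 BM and 259 bp in F1 MB, and the strains did not overlap. The centred difference in length was -497.5 ± 238 bp, with a limma adjusted p of 0.545, and it was between -789 and -233.5 bp over the alternatives in which the gene was fitted. All 6 libraries had a summit in the same stretch of an intron, 512 and 546 bp downstream of the TSS in B6, 515 and 540 bp in MSM, 554 bp in F1 BM and 530 bp in F1 MB. The libraries differed at both edges. The B6 peaks began 27 bp upstream and 13 bp downstream of the GENCODE TSS. The MSM peaks began 349 and 361 bp downstream of it, and that of F1 MB 434 bp downstream. The RefSeq start of Psme1 lies 371 bp downstream of the GENCODE TSS. The MSM peaks thus began just upstream of the RefSeq start, and the B6 peaks further upstream. The far edge lay 1003 and 911 bp downstream in B6, 795 and 621 bp in MSM, 727 bp for the main peak of F1 BM and 692 bp in F1 MB. F1 BM had a separate peak of 228 bp at the TSS with a fold of 3.07 and a main peak that began 386 bp downstream. At Psme2, the partner gene in the same complex and on the same chromosome, the fold was 9.72 and 4.43 in B6, 5.12 and 3.68 in MSM, and 2.85 (F1 BM) and 4.51 (F1 MB) in the hybrids. These values overlapped between the strains before centring. Centred, the difference was -0.56 ± 0.32, with an adjusted p of 0.704. Immune cells express these interferon-inducible genes highly. Of the 8 immune and Kupffer cell genes, 1 had a peak in B6 replicate 1 and 0 in B6 replicate 2 and in both MSM libraries, and their part in the difference was not tested.

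**Figure D4:**
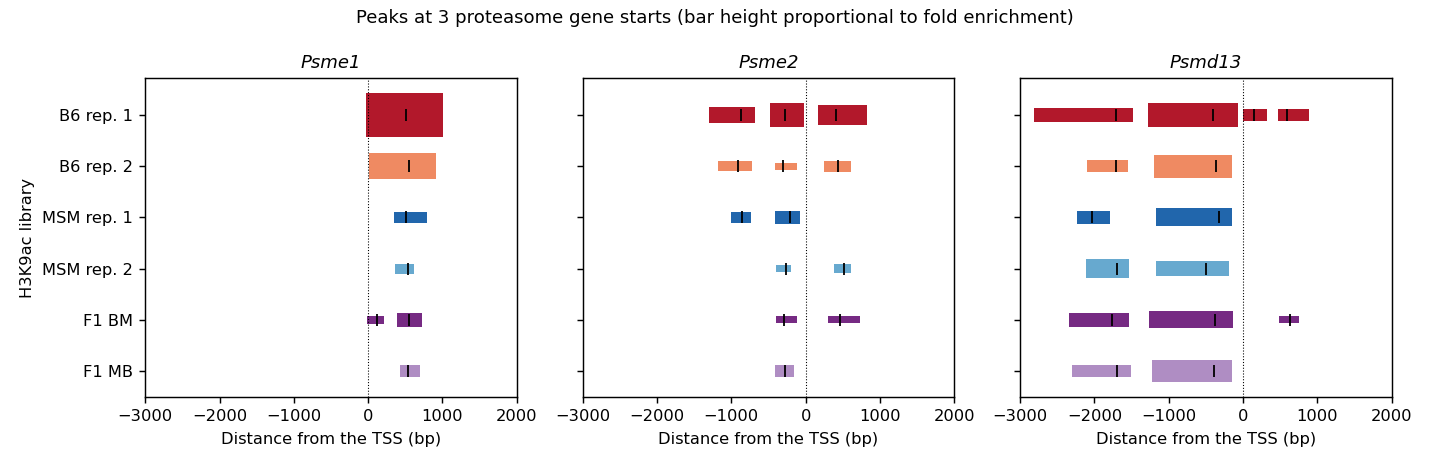
H3K9ac peaks by distance from the TSS in bp (x axis, negative values upstream) in the 6 libraries (rows) at Psme1, Psme2 and Psmd13; bar height is proportional to the fold enrichment and the tick marks the summit. The Psme1 peak starts near the GENCODE TSS in both B6 libraries and 349 to 434 bp downstream of it in both MSM libraries and F1 MB. The RefSeq start of Psme1 lies 371 bp downstream of the GENCODE TSS. The main marks of Psmd13 lie upstream, over Sirt3.

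The other fold differences were smaller. At Psmc4, a 19S ATPase, the fold was 9.07 and 4.97 in B6, 3.20 and 4.18 in MSM, and 3.75 (F1 BM) and 5.05 (F1 MB) in the hybrids, and the centred difference was -0.84 ± 0.31, with an adjusted p of 0.580. At Psmb2, a non-catalytic beta subunit, it was 6.47 and 4.0 in B6, 9.08 and 8.48 in MSM, and 3.65 (F1 BM) and 6.07 (F1 MB) in the hybrids. Both MSM values were above all of the others, and the centred difference was 0.83 ± 0.30, with an adjusted p of 0.580. At Psmd12, a lid subunit, the fold was 9.47 and 4.08 in B6, 8.26 and 13.9 in MSM, and 5.29 (F1 BM) and 5.82 (F1 MB) in the hybrids, and the centred difference was 0.83 ± 0.33, with an adjusted p of 0.601. The strains overlapped there before centring. At Psmb6 the fold was 7.05 and 3.46 in B6, 6.12 and 8.16 in MSM, and 3.66 (F1 BM) and 4.12 (F1 MB) in the hybrids, and the centred difference was 0.55 ± 0.31, with an adjusted p of 0.704. Psmb6 was thus longer in B6 and higher in MSM on the centred scales. Its B6 libraries and both F1 libraries had a further peak outside annotated genes, with the summit 278 and 279 bp upstream of the TSS in B6, 599 bp in F1 BM and 609 bp in F1 MB, and neither MSM library had one. None of these differences passed the adjusted threshold.

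**Figure D5:**
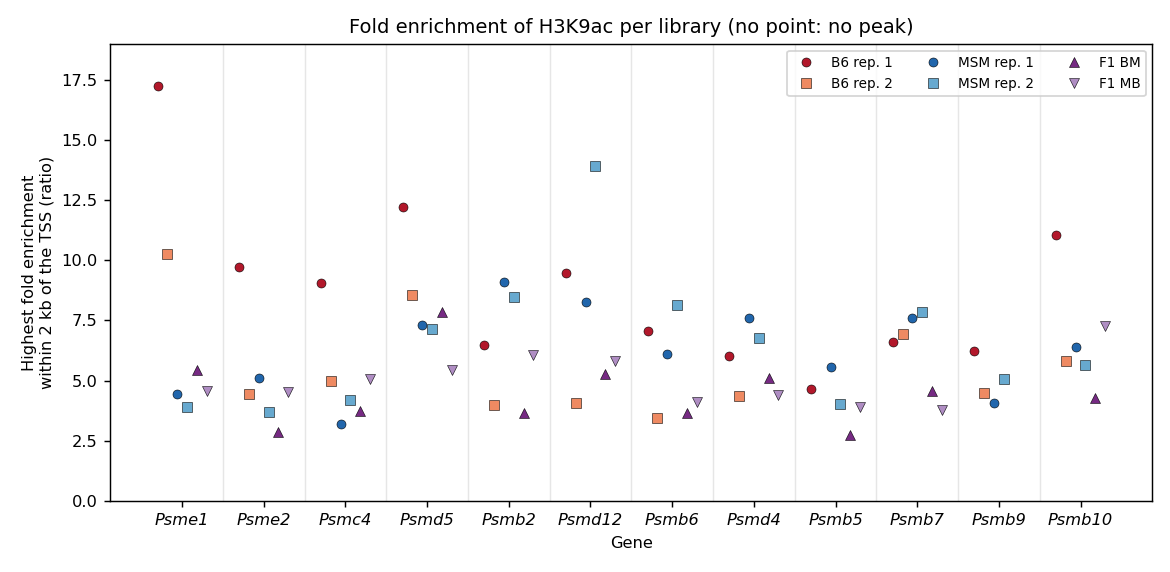
Highest fold enrichment (ratio, y axis from 0) within 2 kb of the TSS in each of the 6 H3K9ac libraries for 12 proteasome genes (x axis); a missing point means no peak. At Psme1 both B6 libraries, at 17.3 and 10.3, stand above the other 4, which lie between 3.90 and 5.45, and at Psmb2 both MSM libraries are highest.

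By role, the differences had no common direction. Lengths were shorter in MSM, on the centred scale, at 3 of 6 alpha ring genes, 3 of 6 beta ring genes, 4 of 6 ATPase genes, 6 of 10 non-ATPase genes and both activator genes, and at 20 of the 35 genes in all. Folds were lower in MSM at 4 of 6 alpha ring, 3 of 6 beta ring, 5 of 6 ATPase and 4 of 10 non-ATPase genes and at both activator genes, and at 22 of 35 in all. The smallest adjusted p of any group was that of the activators in both measures. For comparison, 26 genes that work with the proteasome were listed, among them ubiquitin genes, shuttle factors and the transcription factors Nfe2l1 and Nfe2l2. A peak in all 6 lists was seen at 17 of them, beside 24.4% of all genes, and 2, Psmf1 and Usp14, had none. Of the 26, 18 entered the fit and limma called 0 for length and 0 for fold, beside 0.33% and 0% of all genes. Their median differences were 225 bp and 0.20, beside 21 bp and 0.01 over all genes.

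Each cross had 1 library, so its values carry no replicate error. Among the 33 genes in all 6 lists, the centred length of F1 BM lay within the range of the 4 parental libraries at 24 genes, below it at 3 and above it at 6. The share of all genes was 61.4% within, 21.0% below and 17.5% above. For F1 MB it was within the range at 21 genes, below at 3 and above at 9, beside 65.9%, 14.0% and 20.1% of all genes. Without centring, the length of F1 BM lay within at 25, below at 1 and above at 7, beside 79.0%, 7.55% and 13.5% of all genes. The length of F1 MB then lay within at 25, below at 8 and above at 0, beside 71.7%, 26.8% and 1.5%. The centred fold of F1 BM lay within the parental range at 24 genes, below at 4 and above at 5, beside 62.8%, 17.5% and 19.7% of all genes. Without centring it lay within at 12, below at 21 and above at 0, beside 37.0%, 62.7% and 0.356% of all genes. The centred fold of F1 MB lay within it at 25, below at 4 and above at 4, beside 61.8%, 18.7% and 19.5%. Uncentred, this became 21 within, 12 below and 0 above, beside 66.6%, 30.5% and 2.98%. At Psme1, with centring over all 6 libraries, the log2 fold was 0.92 and 0.97 in B6, -0.61 and -0.81 in MSM, and 0.30 (F1 BM) and -0.31 (F1 MB) in the hybrids, so both hybrids were between the strains. The lengths of Psme1 on this scale were -374 and 213 bp in B6, -489 and -680 bp in MSM, -496 bp in F1 BM and -521 bp in F1 MB, so both hybrids lay within the MSM range. The lists do not separate the alleles of the hybrids.

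Promoter sequences from RefSeq (GRCm38.p6, 250 bases before to 50 after the start) were matched by symbol for 40 of the 48 genes and were searched on both strands for short motifs. There was no entry for Psma8, Psmb1, Psmb2, Psmb7, Psmc3, Psmd3, Psmd7 or Psmg2. The ETS core CCGGAAG was present at 14 of the 40 genes (35.0%), beside 12.3% of 16520 genes, and among genes with a peak in all 6 lists at 10 of 27 (37.0%), beside 21.0%. The core of the antioxidant response element, TGACNNNGC, which the transcription factor Nfe2l1 can bind when proteasome activity falls, was present at 6 genes (15.0%), beside 13.3%. CCAAT, the NFY box, was present at 15 (37.5%), beside 38.8%, and TGACGTCA, the CRE, at 0, beside 2.42%. The median number of CpG sites per promoter was 20 over the 27 genes in all 6 lists, 20 over the 7 in 4 or 5 lists, and 7.5 over the 6 in 2 or fewer lists, beside 14 over all genes and 23 over all genes in all 6 lists. The RefSeq start lay 58777 bp from the GENCODE start used for peaks at Psmd9, 4006 bp at Psmd5 and 3877 bp at Psmb11. The Psmd9 promoter is thus that of its first marked start, although the gene is counted in 2 or fewer lists. A match says only that the letters are present.

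The following sites are shown because they lie in the promoters of the catalytic subunits and of genes whose mark differed between libraries; capitals mark the motif, each line reads 5′ to 3′ on the strand of the gene, and coordinates are GRCm38.
Psmb5, TGACNNNGC, chr14:54618026-54618050, minus strand: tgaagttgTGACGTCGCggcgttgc
Psmb6, TGACNNNGC, chr11:70525340-70525364, plus strand: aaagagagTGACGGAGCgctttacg
Psme4, TGACNNNGC on the other strand, chr11:30771760-30771784, plus strand: ctgcggctGCAGCGTCAccagaaga
Psmd12, CCGGAAG on the other strand, chr11:107479503-107479525, plus strand: gcgggcgaCTTCCGGtgcgagtg
Psmg3, CCGGAAG, chr5:139826876-139826898, minus strand: gacaggaaCCGGAAGttctcgcc
Psmc2, CCGGAAG on the other strand, chr5:21785183-21785205, plus strand: agtgagcaCTTCCGGgatggggc

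The motif of Psmd12 was wholly under a peak in all 6 lists, that of Psmg3 in 3, and that of Psmb5 in 2, B6 replicate 1 and MSM replicate 1. At Psmb6 a peak covered 6 of the 9 motif bases in B6 replicate 2 and 0 in the other 5 lists, and at the Psme4 and Psmc2 sites shown no motif base was under a peak in any list.

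The core of the interferon-stimulated response element (GAAA, any 2 bases, and GAAA again) was searched after the values of Psme1 had been seen. It was present at 5 genes (Psmb3, Psmd4, Psmd9, Psme1 and Psmg4), 12.5% of the 40, beside 3.47% of all genes. The sites at Psme1 and Psmg4 are shown because these genes had the largest fold difference and the presence in both MSM lists alone.
Psme1, response element core on the other strand, chr14:55578495-55578520, plus strand: agctgtgcTTTCGCTTTCccttcccg
Psmg4, response element core, chr13:34162971-34162996, plus strand: gcgcatctGAAAGTGAAAgagcgttc
The RefSeq start of Psme1 lies 371 bp downstream of the GENCODE start, and the site is next to it. All 10 bases of the motif were under a peak in each of the 4 parental lists. A peak of F1 BM covered 4 of them, and none of F1 MB covered any. The Psmg4 motif was wholly under a peak in both MSM lists and had 0 bases under one in the others. At Psmb3, Psmd4 and Psmd9 no base of this motif was under a peak in any list. The letters shown are those of the B6 reference genome, and the MSM sequence was not used here.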

How the data were processed

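The deposited files were peak lists in narrowPeak format, 1 per H3K9ac library, with replicates called separately by the authors. Per the labels, reads were trimmed with Trim Galore, aligned with HISAT2, handled with SAMtools and called with MACS2 on mm10 (versions not given in the sources used here), whereas the study's methods name Bowtie 2 with a long maximal insert. MSM reads were therefore aligned to B6 sequence, and MSM reads over differing sequence could be lost. The fold enrichment that the authors deposited for a peak is a ratio to background on a linear scale, and its p and q values were deposited as −log10. The lowest −log10 q in each deposited list was between 1.30 and 1.35. A score in the deposited lists was not used.

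One TSS per symbol, that of the longest gene, was taken from GENCODE M21. The acetylated length and the highest fold within 2 kb were computed with Python 3.11.15 and numpy 2.4.6, and figures were drawn with matplotlib 3.10.9. Genes with a peak in all 4 parental lists were fitted with limma 3.58.1 in R 4.3.3, with no block and with Benjamini-Hochberg adjustment over all of them. Functions were tested on simulated data. Intervals for counts cannot be given, since the lists hold no reads. The study's figure captions describe the B6 and MSM libraries as coming from individuals, 2 per strain. The limma SE and p-values combine the spread between these individuals with a value shared by all genes fitted.

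The genes, lists, motifs and tests were chosen with earlier results of these data known. Values in every library are given for genes missing from at least 1 list, the catalytic subunits, and the 3 largest differences in each direction among separated genes (2 where there were 2). The longest and shortest marks are given as parental means, and those of Psmd11, Psmd1, Psmd14 and Psmc4 also as a range over the libraries. Alternatives were a −log10 q of at least 5, equal numbers of peaks, equal covered length, a window of 1 kb, all transcript starts, other scalings, a replicate block and leaving out each parental library. 1 gene of the symbol range is not reported here.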

Additional observations from a re-analysis of the deposited data

How the results depend on the processing

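The lists hold no depth, so absence from a list and weakness cannot be told apart, and no exact test on 2 against 2 libraries can pass 0.05. Of 154 comparisons of counts and reach with their main value, 110 stayed within 1.5 times of it or within the replicate spread and 44 did not. The differences of the named genes kept their direction in each of 121 comparisons. These genes were picked among those where the strains did not overlap. Their direction was thus largely set by that choice, and this count is no measure of stability. With the same covered length in each list, where fewer genes remained, 9 genes had a peak in all 6 lists and the separated genes of 10 fitted were 1 (longer in B6), 2 (longer in MSM), 2 (higher in B6) and 1 (higher in MSM), beside 18.6%, 23.8%, 18.5% and 19.6% of all genes. Of these 9, the hybrids were within the parental range at 4 (F1 BM) and 5 (F1 MB) for length and 6 and 5 for fold, beside 60.3%, 63.8%, 63.9% and 60.3% of all genes. Without centring, 1 gene was longer in MSM, beside 3.59% of all genes, and 12 of 33 genes of F1 BM were within the range for fold, beside 37.0%. Quantile normalization also gave 1 gene longer in MSM and scoring absent peaks as 0 bp gave 5, beside 21.2% and 19.8%. The hybrid alternatives were chosen after seeing the data.

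For length, limma called 0 proteasome genes under every alternative, while the number of all genes called was 9 with a −log10 q of at least 5, 0 with the same number of peaks, the same covered length, a window of 1 kb, all transcript starts, no centring or quantile normalization, 44 with absent peaks as 0 bp, and 0 to 25 when 1 library was left out. For fold, 1 proteasome gene, Psme1, was called with all transcript starts (3 of all genes) and with −log10 p in place of the fold (34 of all genes), and leaving out 1 library gave 0 to 1 of all genes. Such fits assume that the lone sample varies like the other strain. Leaving out 1 library gave 1 to 6 genes present in MSM alone (0.338% to 7.30% of all genes), 13 to 24 longer in B6 (29.5% to 44.6%), 3 to 19 longer in MSM (30.6% to 48.3%), 15 to 20 higher in B6 (33.2% to 34.5%) and 6 to 13 higher in MSM (33.8% to 36.7%). The cause of these changes was not tested.

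Replicate numbers share only a name: deviations of same-numbered libraries correlated at -0.00842 for length and -0.03 for log2 fold over 5759 genes. With the replicate block, 122 of all genes and 0 proteasome genes were called for length, and 7 of all genes and 1 proteasome gene for fold, which was Psme1 with a difference of -1.64 and an adjusted p of 0.00385 in limma.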
